A study of Caenorhabditis elegans with 4 samples.

Results

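The 500 strongest EFL-1 sites are the combined ChIP-seq peaks that the authors numbered 1 to 500, out of 4966 combined peaks. They were chosen by that number, taken as the authors' rank because every combined peak carries the same score, so strength and rank are given below as a description and without a test. EFL-1 is a Caenorhabditis elegans transcription factor of the E2F family. The worms were hermaphrodites of strain MT10430, genotype lin-35(n745), and the sample titles label them L1 26dC. Growth is recorded at 20 °C. If 26dC stands for a temperature, the labels conflict, and this was not resolved here. All samples carried lin-35(n745), there was no strain with intact lin-35, and whole larvae were used, so the cell types behind a peak are not resolved. Of 4 samples, 2 were EFL-1 ChIP and 2 were input, each ChIP replicate had a peak list of its own, and 1 list combined them.

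E2F factors bind DNA together with a DP partner, which in the worm is DPL-1. With the retinoblastoma family protein LIN-35 and the MuvB proteins (LIN-9, LIN-37, LIN-52, LIN-53 and LIN-54 in the worm) they form the DREAM complex, which is known mainly for holding down cell cycle genes and, in worm somatic cells, germline genes. LIN-35 links the E2F-DP pair to the MuvB proteins.

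The strongest peaks lay mostly beside protein-coding genes, in short gaps between them. Genes were taken from the RefSeq table of assembly WBcel235, which gives no strand, whereas the peaks are in WS220 coordinates. A gene start therefore could not be told from a gene end, and "edge" means either. The offset between the builds, estimated from the peaks themselves, ranged from -83.25 to 22.5 bp over parts of the chromosomes. This estimate is rough, as it also takes in sampling error and any uneven placing of peaks around genes. Single distances are therefore approximate. An edge of a protein-coding gene lay within 500 bp of the peak centre at 404 of the 500 peaks (80.8%, exact 95% interval 77.1 to 84.2%). Over all combined peaks the share was 59.5%, over peaks 501 to 4966 it was 57.1% (55.7 to 58.6%), and 31.1% of genome bases lay that close to an edge. Intervals here are exact binomial (Clopper-Pearson) intervals, cover counting error only and take peaks as independent, and since peaks are not replicates no test was made of these differences. Moving every gene edge by 100 bp along the chromosome, more than any estimated offset, gave 79.6% and 81.6%.

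The share was lower among weaker peaks. It was 72.2% at peaks 501 to 1000, 62.0% at peaks 1001 to 1500, 65.6% at peaks 1501 to 2000 and 45.9% at peaks 4501 to 4966. Replicate peaks outside the combined list were lower still, at 36.6% of 17067 in replicate 1 and 35.7% of 17264 in replicate 2. Within the 500, the number with an edge that close was 90 among peaks 1 to 100 and 71 among peaks 401 to 500. The median distance to the nearest edge was 197.5 bp for the 500 peaks and 353 bp for the other combined peaks.

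**Figure D1:**
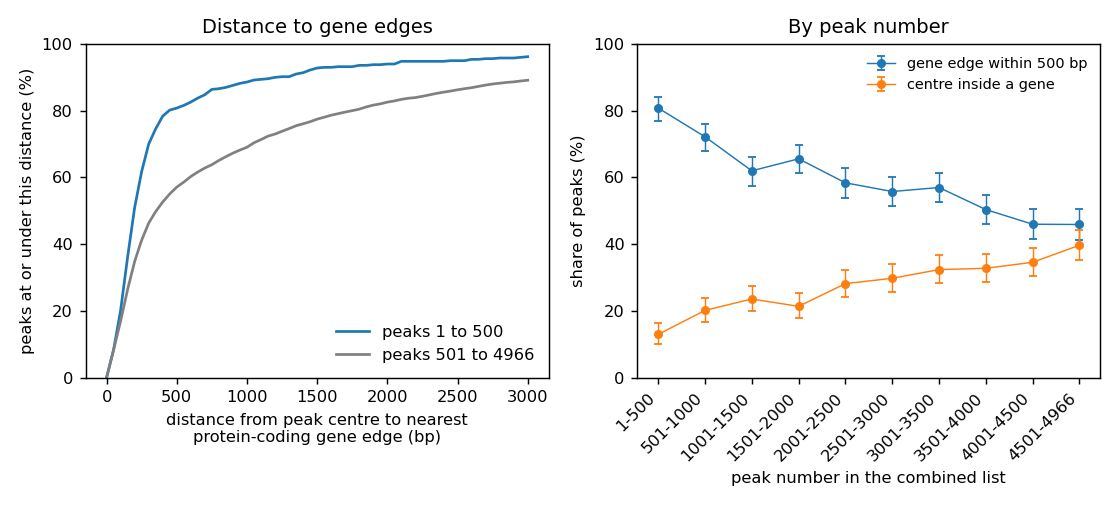
Left, cumulative share of peaks (%) by distance from the peak centre to the nearest protein-coding gene edge (bp), for peaks 1 to 500 and peaks 501 to 4966. Right, share of peaks (%) with an edge within 500 bp and share centred inside a gene, by peak number, with exact 95% intervals; the first falls from 80.8% to 45.9% and the second rises from 13% to 39.7%.

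Most centres were outside genes. Only 65 of the 500 peaks (13%) were centred inside a protein-coding gene, and 38 of these 65 were within 500 bp of an edge. Among all combined peaks 27.5% were centred inside a gene, among peaks 501 to 4966 it was 29.1%, and protein-coding genes took up 61.9% of genome bases. Where the centre lay between genes, the gap was short. Its median length was 782 bp around 435 of the strongest peaks, against 1946 bp around the other combined peaks. Of the 500 peaks, 221 (44.2%) had exactly 2 genes within 500 bp, compared with 23.8% of the others. Another 178 peaks had 1 such gene, 5 had 3 or more, and 96 had none. A peak with 2 genes cannot be given to either of them from these data.

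The first 20 peaks show the pattern gene by gene. Peak 1, on chromosome II from 216540 to 217002 (WS220), ranked second in the replicate 1 list and first in that of replicate 2. Its centre was about 150 bp from F48A11.4 and 278 bp from ubxn-3, which encodes a UBX-domain partner of the CDC-48 ATPase. Peak 2, on chromosome II from 14383551 to 14383976 (numbers 1 and 4 in replicates 1 and 2, an order kept below), was 210 bp from mes-2. MES-2 is the worm histone methyltransferase of the Polycomb repressive complex and is needed for germline survival. The same peak was 384 bp from sdz-26.

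Peak 3, on chromosome IV from 12724574 to 12725044 (numbers 6 and 3), was 49 bp from T23F6.3 and 177 bp from rbd-1, an RNA-binding protein of ribosome production. Peak 4 (numbers 14 and 2) was 224 bp from tasp-1. Peak 5 (numbers 10 and 5) was 109 bp from cdc-48.1, which encodes the CDC-48 ATPase that extracts ubiquitinated proteins. The next peaks were beside F56A8.9 and F56A8.3 (peak 6), eas-1 and ctsa-1.1 (peak 7), syf-3 (peak 8), and Y53F4B.9 and Y53F4B.11 (peak 9).

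Peak 10, on chromosome IV from 15570713 to 15571125 (numbers 18 and 7), was the only 1 of the first 20 with no protein-coding gene within 500 bp. The nearest, pqn-76, was 8167 bp away, and 3 piRNA genes (21ur-8889, 21ur-10547 and 21ur-10890) were within 500 bp. Peak 11 was 161 bp from smg-8, a factor of nonsense-mediated mRNA decay. Peak 12 was 23 bp from smu-1, a splicing factor, and 305 bp from the neuropeptide gene nlp-15. Peaks 13 and 14 were beside citk-2, and beside nspg-9 and dld-1; dld-1 encodes the mitochondrial dihydrolipoamide dehydrogenase. Peak 15, on chromosome V from 8031152 to 8031556 (numbers 32 and 10), was 57 bp from vars-1, a valyl-tRNA synthetase, and 140 bp from oma-2, a zinc-finger protein of oocyte maturation.

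Peak 16, the only 1 of the 20 centred inside a protein-coding gene, was 177 bp from an edge of C06H5.8 and 195 bp from E01B7.2. Peak 17 was 91 bp from sti-1, an Hsp90 co-chaperone, and peak 18 was 129 bp from ttc-37. Peak 19 was 147 bp from npp-19, a nuclear pore protein, and peak 20 was beside H14E04.2. Of the genes at these 20 peaks, mes-2 and oma-2 were the only ones on the lists described next.

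In all, 627 of 19971 protein-coding genes (3.14%) had an edge within 500 bp of a strongest peak, and 3925 (19.7%) had one within 500 bp of any combined peak. These shares are the background for 16 gene lists, of which 70 of 433 genes were at a strongest peak. Of these 70 genes, 56 shared their peak with another gene, and the 70 genes sat at 63 peaks. In a window of 200 bp the number was 28 of 433, beside 312 of all 19971 protein-coding genes in that window.

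Some genes that encode components of the complex stood at the strongest peaks. Of 10 DREAM and E2F genes, 5 were there. For lin-54, which encodes the DNA-binding MuvB subunit, the peak was number 95 (numbers 109 and 96 in replicates 1 and 2), although this peak lay closer to rpl-12 (3 bp) than to lin-54 (396 bp). At lin-53, the histone-binding subunit, it was peak 100 (numbers 145 and 74), shared with nra-2. The gene for EFL-1 had peak 164 (numbers 173 and 157) at 156 bp, with no other protein-coding gene in reach. At lin-9, the MuvB scaffold, it was peak 195 (numbers 176 and 208), also with no other gene in reach. The lin-35 gene had peak 399 (numbers 345 and 494), with vps-51 on the same peak. Only 1 more of the 10 had any combined peak, dpl-1 at peak 1875, and 4 had none (efl-2, efl-3, lin-37 and lin-52).

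Genes of DNA replication were also frequent. Of 26 replication genes outside the MCM helicase, 10 (38.5%) were at a strongest peak and 20 at any combined peak. The sliding clamp gene pcn-1 had peak 80 (numbers 85 and 65). The clamp loader gene rfc-4 had peak 93 (numbers 106 and 94), shared with eef-1A.1, and rfc-1 had peak 315 (numbers 310 and 317). Primase genes pri-2 and pri-1 had peaks 106 and 438. The others were psf-3 of the GINS complex (peak 175), the polymerase epsilon gene pole-1 (198), the origin licensing gene cdt-1 (208), the origin recognition gene orc-5 (298) and the nuclease gene crn-1 (394). Only pole-1, cdt-1, orc-5 and rfc-1 had a peak with no other protein-coding gene within 500 bp. The rest of the 10 shared theirs.

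Of the 6 MCM genes, which encode the replicative helicase, 3 were at a strongest peak. These were mcm-7 (peak 226, numbers 141 and 311), mcm-2 (263, numbers 245 and 292) and mcm-4 (368, numbers 308 and 437). The peak of mcm-4 was shared with Y39G10AR.32. The other MCM genes had weaker combined peaks. Of 6 genes of deoxynucleotide synthesis only rnr-1, the large subunit of ribonucleotide reductase, was at a strongest peak (peak 28, numbers 22 and 37).

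Mitosis genes were nearly all at a combined peak, but mostly at a weaker one. Of 52, 46 (88.5%) were at a combined peak and 11 (21.2%) at a strongest peak; a further 12 were at peaks 501 to 1000, 14 at peaks 1001 to 2500 and 9 below. The strongest were scc-2, the cohesin loader (peak 60), csc-1 of the chromosomal passenger complex (121), the kinetochore gene hcp-1 (147), the cohesin gene scc-1 (187) and the kinetochore gene ndc-80 (229). The securin gene ify-1 had peak 265, which it shared with rpl-22, and the separase gene sep-1 had peak 436. The other members were knl-3 (307), knl-1 (420), the Polo kinase gene plk-1 (456) and the checkpoint kinase gene bub-1 (489), which shared its peak with lin-61. Of these 11 mitosis genes, all but scc-2 shared their peak with another gene. Only 2 of the 11 had an edge within 200 bp of the peak centre.

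Cytoplasmic ribosomal protein genes were the most numerous at the strongest peaks. Of 64 such genes, 29 (45.3%) were at a strongest peak, 21 at peaks 501 to 1000, 7 at peaks 1001 to 2500 and 0 at peaks 2501 to 4966; 7 had no combined peak. With names that carry a letter suffix added, it was 33 of 78. The 29 genes sat at 26 peaks, from peak 31 at rpl-3 (numbers 35 and 32) to peak 487 at rpl-9 (numbers 455 and 549). The pairs rpl-41.1 and rpl-41.2, rpl-36 and rps-14, and rpl-24 and rps-10 each shared 1 peak, at numbers 275, 318 and 326. Of the 29 genes, 28 shared their peak with some other gene. Their edges were 261 bp from the centre at the median, against 203 bp for all 627 genes. A window of 200 bp left 5 of the 29, and 312 of all protein-coding genes.

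Other lists had 3 genes or fewer at the strongest peaks, and their shares differed. The background share of all protein-coding genes was 3.14%. Of 35 DNA repair and checkpoint genes, 3 (8.57%) were there. These were fcd-2 of the Fanconi pathway (peak 135), the checkpoint clamp gene mrt-2 (205) and brc-1, the worm BRCA1 (426). Of 14 synMuv B and germline chromatin genes, 3 (21.4%) were there, mes-2, the Polycomb gene mes-6 (peak 445) and lin-61 (489). Single genes were found for cyclins, CDKs and regulators (cdk-1, peak 197, of 17) and P granule and germline RNA regulators (oma-2, of 23). The same held for small RNA pathways (mut-15, peak 258, of 20), muscle (deb-1, peak 412, of 16) and histone genes named his (his-37, peak 192, of 72). A single gene made up from 1.39% (histones) to 6.25% (muscle) of these lists, close to the background share. The muscle gene deb-1 shared its peak with rps-4, mut-15 with fib-1, cdk-1 with iff-1, fcd-2 with eef-1B.2 and his-37 with C50F4.6. Histone genes are repeated nearly identically in the genome, so reads may not be assigned to 1 copy, and their count is uncertain.

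Meiotic chromosome genes had 0 of 26 at a strongest peak and 9 at any combined peak, 5 of them at peaks 2501 to 4966. Neuronal genes had 0 of 27 at a strongest peak and 3 at any, and intestine genes 0 of 19 at either. With a background of 3.14%, a list of these sizes would hold about 1 such gene or fewer, so 0 is close to the background share.

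**Figure D2:**
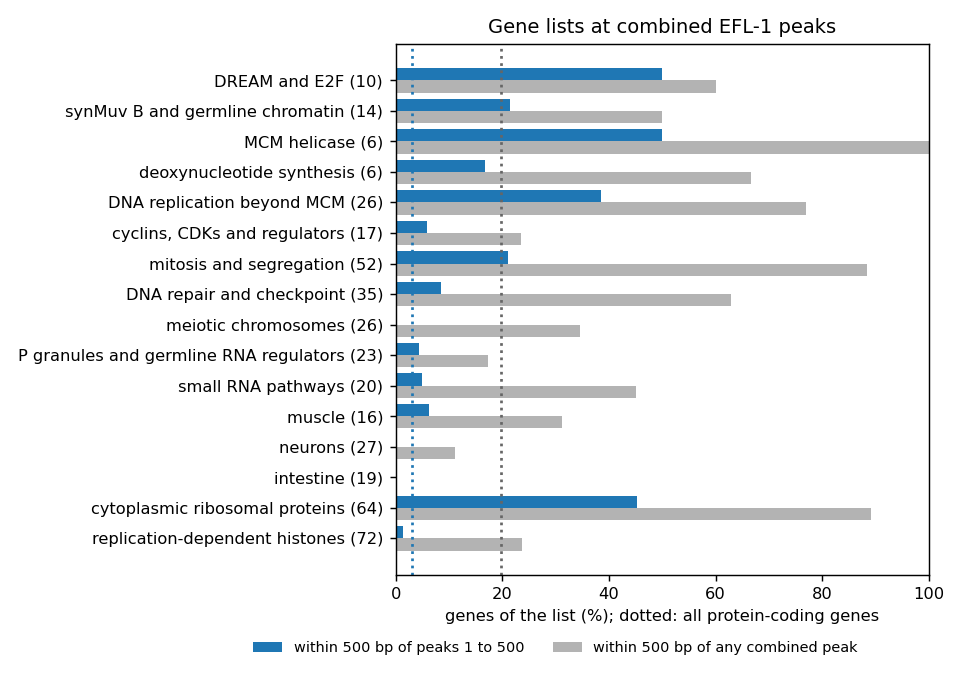
Share of the genes of each list (%, number of genes in brackets) with an edge within 500 bp of peaks 1 to 500 (blue) or of any combined peak (grey); dotted lines mark the shares of all protein-coding genes, 3.14% and 19.7%. DREAM and E2F, MCM, ribosomal protein and other replication genes have the longest blue bars, from 50.0% to 38.5%. The list labelled replication-dependent histones holds his genes in general, variants such as his-72 included.

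Not all strong peaks were near a protein-coding gene. Of the 96 without an edge within 500 bp, 27 were centred deep inside a gene and 69 lay between genes. A noncoding gene, most often of the class ncRNA (18 peaks), had an edge within 500 bp at 26 of the 96. The same count was not made for the other combined peaks. With genes of every biotype, an edge lay within 500 bp at 86% of the 500 and 70.4% of the other combined peaks. An ncRNA gene was within 250 bp of 10.8% of the 500, 13.6% of the others and 13.3% of all combined peaks. The farthest of the 96 was peak 353 on chromosome III, from 1925184 to 1925539 (numbers 414 and 301), 14185 bp from the nearest edge. Peak 209, from 1926437 to 1926750 (numbers 226 and 200), lay 1232 bp from it, and both were inside the gene pqn-41. Widths in this group had a median of 325.5 bp, against 311.5 bp for the 404 peaks near an edge.

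No strong peak lay at a tRNA gene. Within 250 bp of the 612 nuclear tRNA genes there were 0 of the 500 peaks, which allows a share of up to 0.735% (exact interval), against 173 of the 4966 combined peaks (3.48%), all of them among the others. These began with 1 among peaks 501 to 1000 and 5 among peaks 1001 to 1500. From peaks 2001 to 2500 on, each group of 500 held between 24 and 30, counting the shorter last group. Windows around tRNA genes took up 0.325% of genome bases. snRNA genes were within 250 bp of 6 of the 500 peaks (1.20%, exact interval 0.44 to 2.59%) and of 25 others (0.56%). That interval includes the share of the others, and the share over all combined peaks was 0.62%.

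Chromosome X held few of the strongest peaks. It had 21 of the 500 (4.20%, exact interval 2.62 to 6.35%), against 12.7% of the other combined peaks (11.8 to 13.7%) and 13.7% of protein-coding genes. The share on X varied with rank. It was 1% at peaks 1 to 100, 9.20% at peaks 501 to 1000, 11% at peaks 1001 to 1500, 10% at peaks 1501 to 2000 and 15.9% at peaks 4501 to 4966. Counted by genes, 17 of 2730 X genes (0.623%) were at a strongest peak. The share of genes was 1.82% on V, 3.44% on IV, 3.51% on II, 4.69% on I and 5.68% on III. At any combined peak, X had 11.6% of its genes and V 13.4%, against 28.4% on I and 29.9% on III. Chromosome III held more of the strongest peaks than any other chromosome, 122 or 24.4% (20.7 to 28.4%), with 13.2% of the genes.

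The first X peak was number 87, on chromosome X from 14101940 to 14102298 (numbers 103 and 73), at F16B12.6. The other X genes included rpl-11.2 (peak 127), the translational repressor gene puf-9 (166), the elongation factor gene eef-1A.2 (237) and the chaperone gene hsp-3 (366). Of the 21 X peaks, 6 had no protein-coding gene edge within 500 bp.

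**Figure D3:**
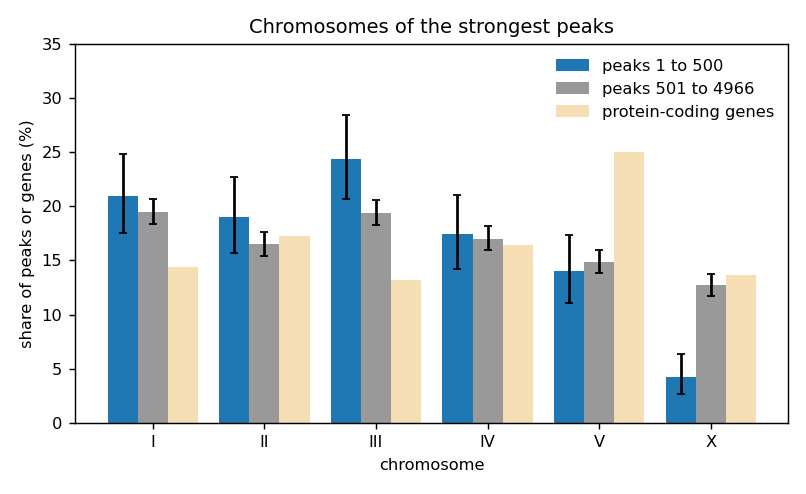
Share (%) of peaks 1 to 500, of peaks 501 to 4966 and of protein-coding genes on each nuclear chromosome; bars on the peak columns are exact 95% intervals for counting error. X holds 4.20% of the strongest peaks and 12.7% of the others, and III 24.4% and 19.4%.

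The strongest peaks were spread along the chromosomes, but by median distance they lay closer to one another than the peaks of later groups did. The nearest other combined peak was at a median of 4474.5 bp from centre to centre, and 4484.5 bp for the other peaks. The nearest fellow among the 500 was at a median of 47771 bp. In the next groups of 500 the same distance had medians from 57509 to 69551 bp, all larger. Another of the 500 lay within 5000 bp for 52 peaks, compared with 24 to 45 in each of the later groups. This was not so within 1000 bp, with 4 such peaks among the 500 and 4 to 12 in each of the later groups. The closest pair of the 500, 887 bp apart, was peaks 182 and 133 on chromosome III at tim-1 and pifk-1A. With each chromosome split into 3 equal parts, the middle parts held 36.8% of the 500, 38.6% of the others and 37.8% of genes.

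Median width narrowed with rank down to peak 2000, and many weaker peaks had 1 fixed width. The 500 peaks had a median width of 315 bp, with quartiles of 287 and 357 bp and a range from 239 to 884 bp. The median was 247 bp at peaks 501 to 1000, 197 bp at peaks 1001 to 1500, 169 bp at peaks 1501 to 2000 and 204 bp at peaks 2001 to 2500, of which 47.4% had the fixed width. From peak 2501 on, it was 330 bp, the fixed width that 58.6% of the other combined peaks had and 4 of the 500 had. The smaller median of the 500 against the 330 bp of the others therefore does not mean that they were narrower in measurement; others that did not have the fixed width had a median of 187 bp. Within the 500, the median went from 369 bp at peaks 1 to 100 to 280 bp at peaks 401 to 500. All 500 were wider in the combined list than in either replicate, where their medians were 286 and 267 bp.

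**Figure D4:**
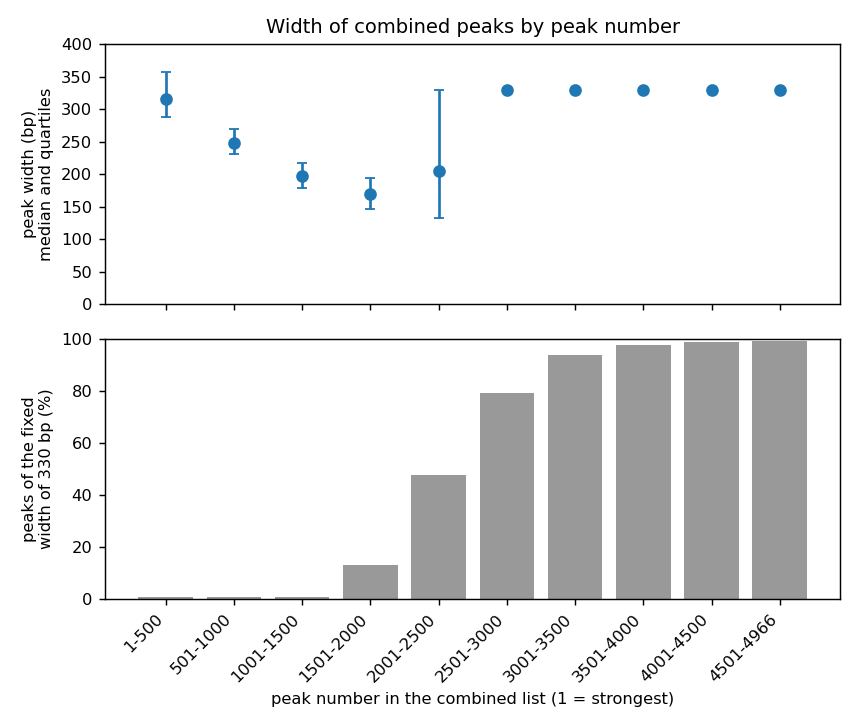
Upper panel, median width of combined peaks with quartiles (bp) by peak number. Lower panel, share of peaks (%) with the fixed width of 330 bp; it is 0.8% at peaks 1 to 500 and 99.1% at peaks 4501 to 4966, while the median falls from 315 to 169 bp at peaks 1501 to 2000, is 204 bp at peaks 2001 to 2500 and 330 bp from there on.

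By the rule, the 500 were strong in both replicates. Every 1 of them overlapped a peak in each replicate, and all had that replicate's top score, which 4153 other combined peaks shared in replicate 1 and 3260 in replicate 2, so scores do not separate them. The highest number among them was 864 (replicate 1) or 630 (replicate 2). Of the 500, 444 (88.8%) were among the 500 strongest of both replicates, 28 were in that set of replicate 1 alone and 28 in that of replicate 2 alone. None was outside the first 500 of both. The replicate numbers differed by 46.5 at the median, against 130 at peaks 501 to 1000, and their Spearman rho over the 500 peaks was 0.88, a description only, as these peaks were chosen on the same samples. All of the 500 strongest replicate 1 peaks overlapped a combined peak, as did all but 2 of replicate 2, and those 2 were mitochondrial.

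The 10 members with the highest number in either replicate, in the order of that number, began with peak 478. It lay on chromosome III from 349396 to 350279 and had numbers 864 and 264. It was also the widest of the 500 at 884 bp, and its interval is listed again as peak 1807. Its centre was inside gei-4, 4957 bp from an edge. Peak 485, on chromosome I at tre-1, had numbers 664 and 369, and peak 493, on X near asb-2, had 424 and 630. By the higher of both numbers, the next were peak 499 near hmg-1.1 (629 and 417), peak 475 near C34E10.10 (613 and 399), peak 484 near chd-7 (394 and 609), peak 433 near Y47G6A.25 (340 and 602), peak 491 near pqn-16 (601 and 426), peak 466 near zip-2 (390 and 600) and peak 416 near K07B1.7 (338 and 599). Besides peak 478, the intervals of peaks 236, 344 and 486 were each listed a second time at a higher number, and peak 449 overlapped peak 4748 in part.

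The boundary at 500 is a cut through a continuous ranking. The last 3 peaks inside it, near cav-2, hmg-1.1 and C37A2.8, had numbers 489 and 521, 629 and 417, and 590 and 448 in replicates 1 and 2. The first 3 peaks outside it, near act-2, cdk-5 and cpi-2, had 447 and 566, 631 and 434, and 395 and 627. Widths were 272, 677 and 245 bp inside and 260, 234 and 301 bp outside.

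**Figure D5:**
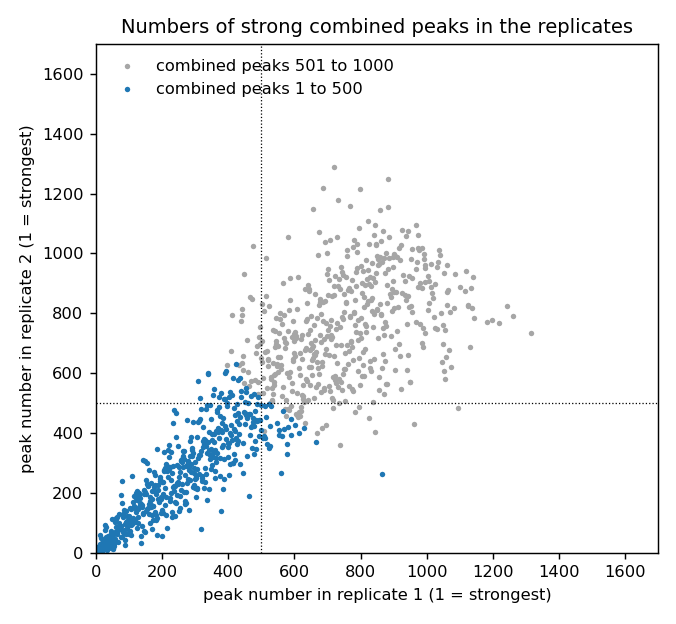
Peak number in replicate 1 (horizontal) and replicate 2 (vertical) of combined peaks 1 to 500 (blue) and 501 to 1000 (grey); 1 is the strongest peak and dotted lines mark 500. Of the blue points, 444 lie below 500 on both axes, and the point at 864 and 264 is peak 478.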

How the data were processed

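EFL-1 ChIP-seq peak lists from 2 ChIP samples and their combination were used; the 2 input samples were not analysed here. Per the file headers, peaks are in WormBase WS220 coordinates and were called with SPP followed by IDR; versions, thresholds, the aligner and the use of input could not be learnt from these sources. The deposited score has no stated unit and is the same in every combined peak, so the number in each peak's name was used as the authors' rank. Read depth is unknown. Replicates are numbered 1 and 2 as the sample titles have it, although the names of their deposited files number them 2 and 3, and no source says whether they were separate cultures.

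Peaks were compared in Python 3.11.15 (numpy 2.4.6, pandas 2.3.3, scipy 1.17.1, matplotlib 3.10.9), with functions tested on simulated data. Peaks matched at 1 bp of overlap. Where a combined peak overlapped more than 1 peak of a replicate, the lowest number was used. Of the 500, 11 overlapped 2 peaks of replicate 1 and 13 overlapped 2 of replicate 2. Genes were 19971 nuclear protein-coding genes of RefSeq's WBcel235 table, which has no strand: the planned distances to gene starts became distances from peak centres to either gene edge. The build offset was estimated, within parts of each chromosome, from peaks 1 to 2500 as the mean of the median positions relative to low and high gene edges. Sequence motifs and promoter sequences, also planned, were not analysed here. Of the names in the lists, 4 were not matched (cdc-45, mat-2, rad-54 and mut-2). Members and lists were chosen with earlier results of these data known. Genes named were those at peaks 1 to 20 and listed genes at the 500 peaks; other genes mentioned were chosen after their values were seen, as nearest genes of peaks singled out by number, width, chromosome or spacing.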

Additional observations from a re-analysis of the deposited data

How the results depend on the processing

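Of 37 alternative values, 26 were unmoved and 11 moved. Moved means outside the exact or order-statistic 95% interval of the reported value, or, for counts, by more than 1.5 times. The median width of 315 bp was 342 bp for the 250 strongest peaks and 280.5 bp for the 1000 strongest. The share with a gene edge nearby (80.8%) was 51% in a window of 200 bp, 88.6% in 1000 bp, 86% with genes of every biotype, 85.2% for the 250 strongest peaks and 76.5% for the 1000 strongest. The windows and biotypes move it by construction; for the other combined peaks the shares were 34.8%, 69.1% and 70.4%. The share on X was 6.70% for the 1000 strongest peaks. In a window of 200 bp, listed genes at the 500 peaks fell to 28, ribosomal protein genes to 5 and all protein-coding genes to 312. When the 500 strongest nuclear peaks of 1 replicate alone were used, the edge share was 79.6 to 80.8%, the X share 4 to 4.40%, listed genes 71 to 72, ribosomal protein genes 30 to 31 and protein-coding genes 615 to 623; these are largely the same peaks. The counts of listed genes with moved edges or from 1 replicate, and all those of ribosomal protein and protein-coding genes, were added after the data were seen. Motif results and their alternatives were not run. No paired analysis was possible because no result compares ChIP with input samples. Without read depths, no error on the strength of a single peak could be given.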

Other observations

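The 500 strongest peaks also stood at genes of other families, chosen here after their values were seen and given without a test. Of 6 eef genes, which encode translation elongation factors, 5 were within 500 bp of a strongest peak: eef-1G (peak 50, numbers 50 and 49 in replicates 1 and 2), eef-1B.2 (peak 90, 135 and 56), eef-1A.1 (peak 93, 106 and 94), eef-1A.2 (peak 237, 206 and 274) and eef-1B.1 (peak 282, 312 and 262). Another gene shared the peak of 4 of these, ctf-4 that of eef-1G, hrpu-1 that of eef-1B.2, rfc-4 that of eef-1A.1 and aco-2 that of eef-1B.1. The nuclear pore genes named npp had 4 of 26 there, npp-19 (peak 19), npp-22 (22), npp-23 (43) and npp-3 (114), and 22 of 26 at any combined peak. The genes named vps had 5 of 33, and sec genes of the secretory pathway 4 of 20. For all protein-coding genes the share at a strongest peak was 3.14%.

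Genes at the strongest peaks more often carried a gene name of letters and a number than a clone-based identifier. The share was 70% of 627 genes, 67.2% of 3298 genes at other combined peaks only and 53.7% of 16046 genes at none.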
